A study of Mus musculus with 4 samples.

Results

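Collagen chain genes are described here in differentiating 3T3-L1 cells, a clonal preadipocyte line from mouse embryos that becomes fat-laden when induced with hormones. The members are all genes whose symbol is Col, a number, a and a number, such as Col1a1, which gave 42 of the 18194 genes named on the array. Each gene was read from 1 probe set, the one whose log2 signal averaged highest across the 4 arrays. RefSeq lists 44 genes of this pattern, and Col6a6 and Col28a1 were not analysed here. By class there were 11 fibrillar chains, 6 basement membrane (type IV) chains and 25 other chains.

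The study knocked down aof2 (now Kdm1a), which encodes the flavin-dependent histone demethylase LSD1, or Rfk, which encodes riboflavin kinase, in early fat cell formation. Preadipocytes received a control siRNA (siGL3), an aof2 siRNA or an rfk siRNA and were put into the adipogenic mix 24 h later. A further culture was given tranylcypromine (TC), which blocks LSD1 and the monoamine oxidases, with the inducers. No siRNA is named for that culture, so transfection and drug cannot be told apart in its comparison with control siRNA. All 4 cultures were grown in 25 mM glucose and 10% serum, all received insulin, dexamethasone and isobutylmethylxanthine, and all were collected 24 h after induction. No uninduced culture is among the groups, so the response of collagen genes to induction itself was not measured. Each group was 1 culture of 1 cell line on 1 array, made from 250 ng of total RNA, so no spread between cultures can be given and no difference was tested.

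Collagens are matrix proteins built from 3 chains wound into a triple helix. Fibrillar collagens (types I, III, V, XI and relatives) form the rope-like fibrils of connective tissue, with types V and XI setting fibril initiation and diameter. Type IV collagen forms the sheet-like network of basement membranes, and type VI forms beaded filaments beside them. Preadipocytes are fibroblast-like cells that deposit fibrillar collagen, and fat cells surround themselves with a basement membrane, so that the balance of these classes is a known feature of adipogenesis.

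The arrays gave the labelled knockdowns. Kdm1a had a signal of 3494 with control siRNA and 681 with aof2 siRNA, or 19.5% of control, and Rfk had 2122 and, with rfk siRNA, 573, or 27.0% of control. Spiked hybridisation transcripts lay -0.26 to 0.21 (log2) from their control array values. Spiked poly-A transcripts lay on average 0.29 above with aof2 siRNA, 0.17 above with rfk siRNA and at -0.01 with tranylcypromine. Single poly-A probe sets ranged more widely, from 0.0007 to 0.87, -0.02 to 0.78 and -0.25 to 0.66 in the same order. Of the 7 fibroblast markers looked at 6 passed the filter on low signals, among them Pdgfra and Thy1. Of 7 adipocyte markers named on the array 4 passed, and Adipoq, Cd36 and Lep were below it on average. The summed signal of the adipocyte markers was 8914 with control siRNA and 6346, 6856 and 5834 with aof2 siRNA, rfk siRNA and tranylcypromine, and that of the fibroblast markers was 68179, 78041, 74290 and 78093. Of macrophage, endothelial, epithelial, chondrocyte and skeletal muscle markers, 2, 1, 2, 1 and 1 of 5 each passed the filter. Summed macrophage signals lay between 338 and 624, endothelial ones between 66.0 and 117, epithelial ones between 368 and 748, chondrocyte ones between 85.3 and 151 and muscle ones between 117 and 186 on the 4 arrays. These sums weigh each probe set by its own signal. Of the adipocyte markers, the fatty acid binding protein gene Fabp4 had signals of 2463 with control siRNA, 1301 with aof2 siRNA, 791 with rfk siRNA and 1093 with tranylcypromine. The keratin gene Krt19 had 100, 267, 101 and 444 in the same order, and was highest with tranylcypromine. Fabp4 and Krt19 were picked after their values were seen. The other adipocyte markers compared did not all go with Fabp4. With aof2 siRNA, rfk siRNA and tranylcypromine Cebpa lay above control, at 0.56, 0.03 and 0.28 (log2). Lpl lay at -0.43, 0.01 and -0.47 and Pparg at -0.12, -0.77 and -0.44. No marker was listed at 0. The part of these shifts in the collagen values was not tested, and in bulk RNA fewer cells of a type and less RNA per cell cannot be told apart.

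Of the 42 chains 22 passed the filter (a mean log2 signal at or above that of the median probe set, a signal of 50.9) and were compared, and 17 of them were bright, with a mean reaching the 75th percentile (a signal of 414). They comprise 8 of 11 fibrillar chains, 4 of 6 type IV chains, all 3 chains of the main type VI molecule among 5 type VI genes, 4 of 9 fibril-associated chains, 1 of 3 short-chain network chains, 1 of 2 multiplexins and the anchoring fibril chain Col7a1. The 4 transmembrane chains (Col13a1, Col17a1, Col23a1 and Col25a1) were all below the filter. Just inside it lay Col4a6, with a geometric mean of 51.0, and the nearest chain outside it was Col17a1, with 39.5. Values are MAS5 signals, and the hybridisation of a probe set differs from gene to gene, so that signals are compared between arrays and never between genes.

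**Figure D1:**
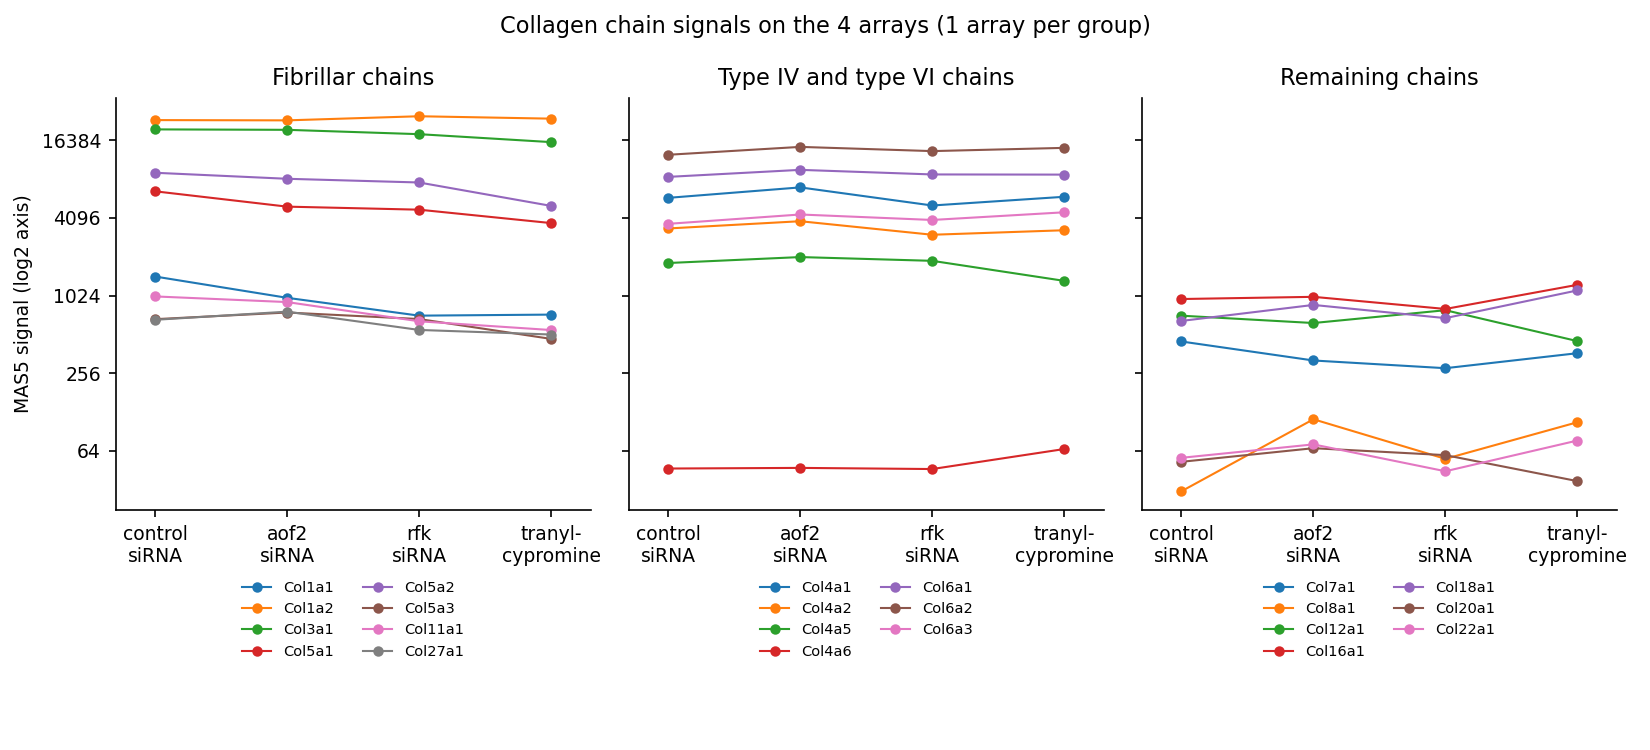
MAS5 signal on a log2 axis (vertical) of the 22 collagen chains above the filter on the 4 arrays (horizontal), in 3 panels by class, 1 point per array, with lines joining the values of the same probe set and no error bars because each group is 1 array. By the probe sets used, 6 of 8 fibrillar chains are lowest with tranylcypromine, whereas all 3 type VI chains are lowest with control siRNA.

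Fibrillar chains were mostly lower with tranylcypromine than with control siRNA, while type IV chains lay on both sides of control and type VI chains slightly above it. Of the 8 fibrillar chains compared 7 lay below control with tranylcypromine, by a median log2 difference of -0.66 (52% of all genes compared lay below), and 4 of them (Col1a1, Col5a1, Col5a2 and Col11a1) were at least 1.5-fold lower. The 4 type IV chains had a median of -0.01, and the 10 chains of other classes one of 0.24. The 2 type IV chains above control with tranylcypromine were Col4a1, at 0.03, and Col4a6, at 0.50 on signals near the filter. Of the 6 type IV probe sets above the filter 4 lay below control with tranylcypromine, with a median of -0.18. For fibrillar chains these were 14 of 17 probe sets and -0.48. The fibrillar chains in which every probe set above the filter was lower with tranylcypromine were Col1a1, Col3a1, Col5a2, Col5a3 and Col11a1. With rfk siRNA the fibrillar median was -0.26, with 6 of 8 below control (51.5% of genes), and with aof2 siRNA it was -0.08, also with 6 of 8 below (50.7% of genes). By the probe sets used, tranylcypromine was the lowest of the 4 arrays for 6 of 8 fibrillar chains, against 28.1% of all genes compared. Control siRNA was the highest for 5 of 8, against 25.2%. Other probe sets above the filter were lowest with rfk siRNA for Col3a1 and Col11a1, and with control siRNA for Col27a1 and a dim one of Col5a1. The other probe sets of Col3a1, Col5a1, Col5a2 and Col11a1 were highest with aof2 siRNA or rfk siRNA, so these ranks depend on the probe set. All 3 comparisons use the same control array, so a high reading of a gene on that array alone would place it below control in each of them.

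Over all 22 chains and the 3 comparisons few chains passed a threshold. With tranylcypromine 0 chains were at least 2-fold lower (0.945% of the 10788 genes compared were) and 1, Col8a1, was at least 2-fold higher (2.23% of genes). At 1.5-fold, 5 of 22 were lower, against 4.77% of all genes compared, and 2 of 22 were higher, against 7.48%. Among bright genes these 5 stood among 17 chains, against 2.31% of bright genes. Of these 5 only Col5a2 passed 1.5-fold in every probe set above the filter. The highest reading of another probe set was -0.58 for Col1a1, -0.14 for Col11a1, 0.13 for Col5a1 and 0.11 for Col12a1. With rfk siRNA 1 chain, Col1a1, was at least 2-fold lower (0.806% of genes) and 0 were higher (0.927%), and at 1.5-fold 3 were lower (3.8%) and 1 was higher (3.92%). With aof2 siRNA 1 chain, Col8a1, was at least 2-fold higher (1.61%) and 0 were lower (0.538%), and at 1.5-fold the numbers were the same, 1 (6.26%) and 0 (2.88%). The medians over the 22 chains were 0.16 with aof2 siRNA, -0.07 with rfk siRNA and -0.17 with tranylcypromine, beside medians over all genes compared of -0.004, -0.009 and -0.016.

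**Figure D2:**
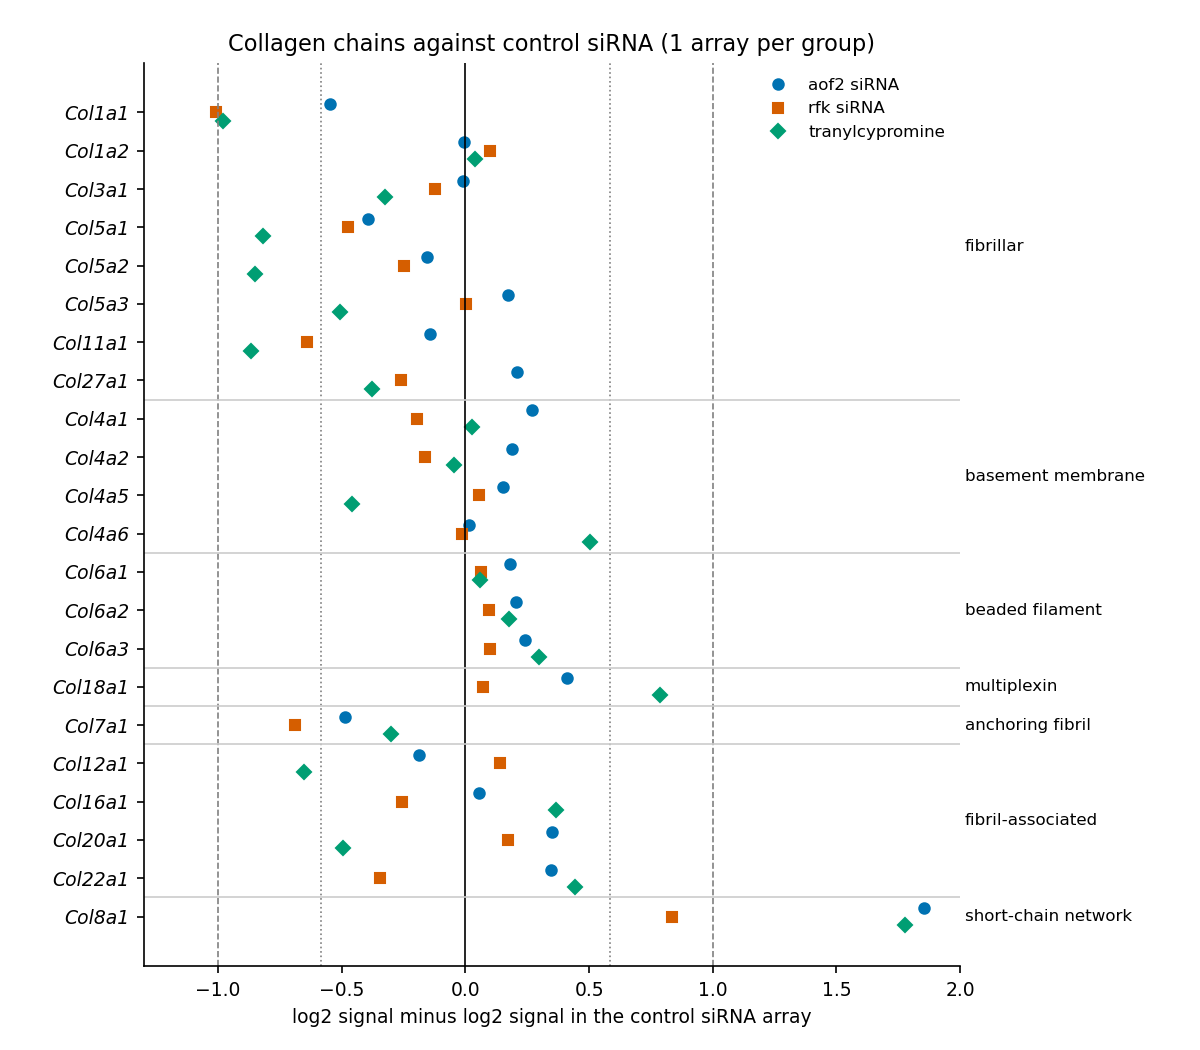
Log2 signal minus the log2 signal in the control siRNA array (horizontal) for the 22 chains above the filter (vertical, grouped by class), with 1 circle, square or diamond for aof2 siRNA, rfk siRNA and tranylcypromine, dotted lines at 1.5-fold and dashed lines at 2-fold. Most diamonds of the fibrillar chains lie left of 0, between -0.98 and 0.04, while those of the type VI chains lie between 0.06 and 0.30.

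Type I collagen, the main fibril protein of connective tissue, is a trimer of the chains encoded by Col1a1 and Col1a2. Col1a1 had signals of 1438 with control siRNA, 983 with aof2 siRNA, 715 with rfk siRNA and 729 with tranylcypromine. It stood highest in the control array, and the rfk siRNA and tranylcypromine arrays, at 49.7% and 50.7% of control, were close to each other. The log2 differences were -0.55, -1.01 and -0.98, and the other probe set of Col1a1 gave -0.11, -0.59 and -0.58, of the same sign and smaller size. Col1a2 had signals of 23463, 23350, 25129 and 24073 in the same order of arrays, which spanned 0.11 on the log2 scale. Its other probe sets above the filter gave lower readings, of -0.29 and -0.76 with aof2 siRNA, -0.23 and -0.19 with rfk siRNA and -0.48 and -0.75 with tranylcypromine. The probe set used for Col1a2 was near the top of the scale, where the highest signals on the 4 arrays were 33479 to 37112, and saturation was not tested. By the probe sets used, the log2 difference of Col1a1 was below that of Col1a2 by 0.54 with aof2 siRNA, 1.11 with rfk siRNA and 1.02 with tranylcypromine. By the other probe sets Col1a1 lay above both of Col1a2 with aof2 siRNA, between them with tranylcypromine and below both with rfk siRNA, so the gap depends on the probe sets used. Col1a2 stood slightly above control with rfk siRNA (0.10) and tranylcypromine (0.04), and with quantile normalization it stood at -0.03 and -0.12.

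Type III collagen, a homotrimer that is laid down with type I in soft tissue, is encoded by Col3a1. Its signals were 19873 with control siRNA, 19722 with aof2 siRNA, 18249 with rfk siRNA and 15839 with tranylcypromine. The tranylcypromine array was the lowest, at 79.7% of control, and the other 3 lay close together. A second probe set gave -0.37 with tranylcypromine, beside -0.33, and -0.46 with rfk siRNA, beside -0.12.

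Type V collagen starts fibrils and limits their width, and its chains are encoded by Col5a1, Col5a2 and Col5a3. Col5a2 had signals of 9163, 8230, 7704 and 5073 with control, aof2 and rfk siRNA and with tranylcypromine. The tranylcypromine array stood apart at 55.4% of control, and its log2 difference of -0.85 was matched by -0.79 in the other probe set. With the siRNAs the probe sets of Col5a2 went opposite ways, -0.15 and 0.17 for aof2 siRNA and -0.25 and 0.25 for rfk siRNA. Col5a1 had signals of 6581, 5006, 4741 and 3733, lowest with tranylcypromine at 56.7% of control. Its probe sets were far apart, since with tranylcypromine they gave -0.82, -0.16 and 0.13, the last from a dim probe set with signals of 49.0 to 55.6. Col5a3 had signals of 672, 756, 673 and 472, again lowest with tranylcypromine, at 70.3% of control. Col5a2 lies next to Col3a1 in the RefSeq annotation, and with tranylcypromine Col3a1 was above it by 0.53 in log2 difference.

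Type XI collagen, known from cartilage fibrils and able to mix with type V chains, was represented by Col11a1. Its signals were 1008, 911, 647 and 553 with control, aof2 and rfk siRNA and with tranylcypromine. The rfk siRNA and tranylcypromine arrays were lower, at 64.2% and 54.9% of control, but its other probe set gave -0.23 and -0.14 against -0.64 and -0.87. Col27a1, a fibrillar chain of cartilage and developing tissue, had signals of 664, 768, 554 and 511, with its highest value in the aof2 siRNA array. With tranylcypromine its probe sets gave -0.38 and 0.07. Over all 17 probe sets of fibrillar chains above the filter, 14 lay below control with tranylcypromine, 12 with rfk siRNA and 9 with aof2 siRNA. Their medians were -0.48, -0.23 and -0.007. Of all genes compared 52%, 51.5% and 50.7% lay below in the same order.

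**Figure D3:**
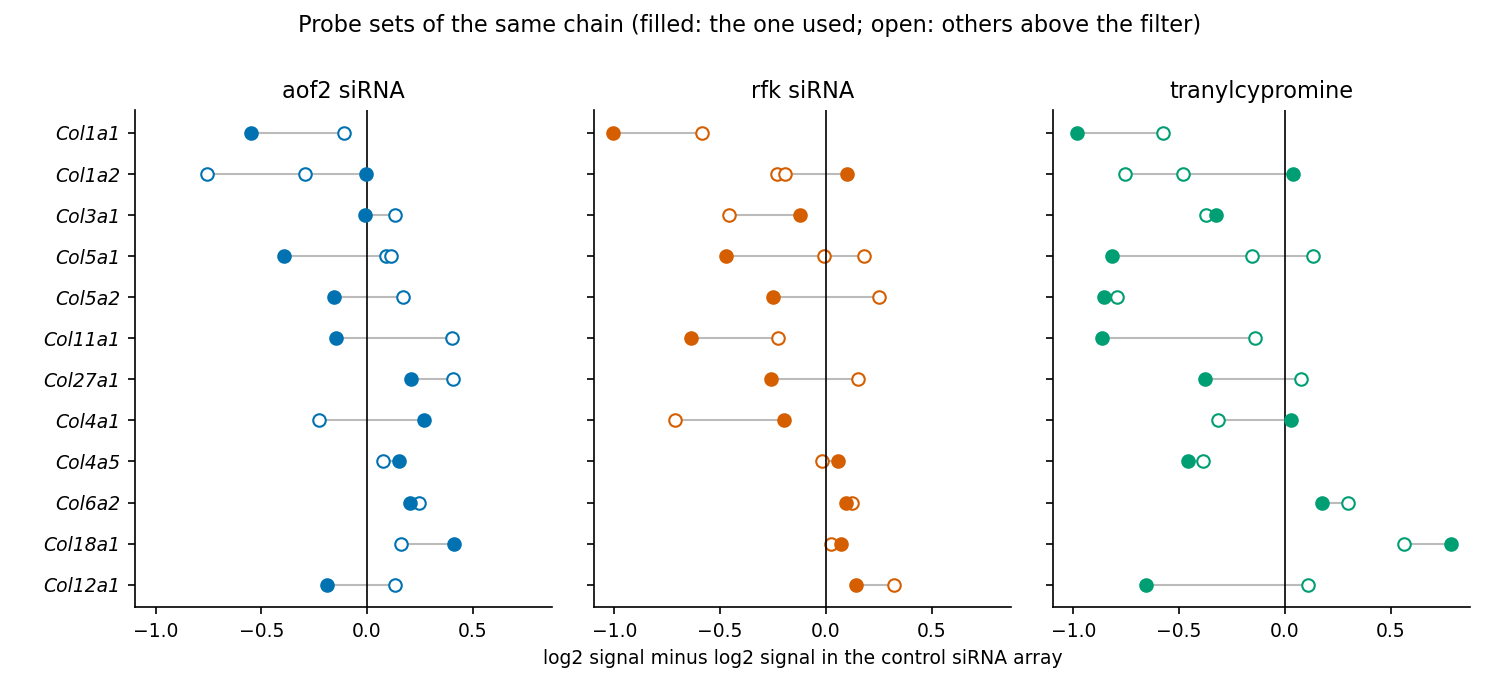
Log2 signal minus the log2 signal in the control siRNA array (horizontal) for each probe set above the filter of the 12 chains that have several (vertical), in 1 panel per treated array, with filled points for the probe set used, open points for the others and grey lines spanning their range. Probe sets of Col5a2, Col4a5, Col6a2 and Col18a1 lie close together with tranylcypromine, while those of Col5a1 spread over 0.95.

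Probe sets of the same chain thus differed by amounts close to the differences from control. Over the 12 chains with several probe sets above the filter the median range was 0.32 with aof2 siRNA, 0.38 with rfk siRNA and 0.37 with tranylcypromine, beside 0.31, 0.29 and 0.34 over 5228 genes with several. All probe sets of a chain had the same sign in 6, 7 and 7 of the 12. A difference from control below about these ranges is within what probe sets of 1 transcript give.

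The sequences upstream of the fibrillar genes are shown because several of these chains were lower together with tranylcypromine, beside that of Col18a1, a chain that was higher. They are RefSeq promoter windows of GRCm38.p6, 5′ to 3′, cut to the bases that lie outside the span of any annotated gene. Capitals mark 3 short motifs, each searched on both strands, so that a match may show as its reverse complement. The CCAAT box was searched as CCAAT. The GC box was searched as GGGCGG, and the TATA box as TATAAA. None of the matches shown overlapped another. Of the 22 chains compared 18 had a window in the table, and Col1a1, Col5a2, Col12a1 and Col22a1 are named only. The window of the fibrillar chain Col27a1 kept 0 bases after the cut, so it is not printed, but its full window is counted below.
Col5a1 (chr2:27886175-27886380, plus strand): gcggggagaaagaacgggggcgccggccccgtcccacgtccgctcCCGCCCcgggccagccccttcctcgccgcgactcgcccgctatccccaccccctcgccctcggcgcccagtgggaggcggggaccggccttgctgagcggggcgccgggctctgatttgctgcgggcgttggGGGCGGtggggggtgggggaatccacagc
Col5a3 (chr9:20815118-20815317, minus strand): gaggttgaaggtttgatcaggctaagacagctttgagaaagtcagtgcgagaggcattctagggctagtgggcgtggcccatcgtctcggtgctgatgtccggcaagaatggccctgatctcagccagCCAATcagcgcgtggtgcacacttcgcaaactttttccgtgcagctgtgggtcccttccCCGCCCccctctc
Col11a1 (chr3:114030290-114030478, plus strand): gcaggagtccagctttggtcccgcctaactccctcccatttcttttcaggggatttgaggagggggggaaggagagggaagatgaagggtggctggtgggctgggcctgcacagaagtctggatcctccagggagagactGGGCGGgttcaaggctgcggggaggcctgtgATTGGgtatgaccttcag
Col1a2 (chr6:4505368-4505617, plus strand): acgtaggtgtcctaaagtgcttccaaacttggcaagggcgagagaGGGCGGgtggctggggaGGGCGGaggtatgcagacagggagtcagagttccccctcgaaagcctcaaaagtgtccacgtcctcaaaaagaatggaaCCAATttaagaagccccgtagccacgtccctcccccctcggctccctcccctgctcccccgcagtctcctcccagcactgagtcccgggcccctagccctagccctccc
Col3a1 (chr1:45311288-45311537, plus strand): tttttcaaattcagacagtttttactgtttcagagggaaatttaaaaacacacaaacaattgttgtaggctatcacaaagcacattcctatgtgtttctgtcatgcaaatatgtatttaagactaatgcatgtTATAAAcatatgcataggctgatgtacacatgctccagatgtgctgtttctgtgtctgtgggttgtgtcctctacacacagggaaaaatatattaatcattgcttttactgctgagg
Col18a1 (chr10:77166531-77166780, minus strand): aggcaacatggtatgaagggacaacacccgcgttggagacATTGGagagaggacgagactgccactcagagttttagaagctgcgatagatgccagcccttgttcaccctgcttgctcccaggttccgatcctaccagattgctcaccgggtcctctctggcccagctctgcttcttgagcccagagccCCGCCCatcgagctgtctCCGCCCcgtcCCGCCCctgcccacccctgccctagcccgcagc
CCAAT was found in the full window of 3 of 6 fibrillar chains compared, in 6 of 14 windows of the other chains compared and in 37.4% of all 32851 windows. GGGCGG was found in 5 of 6, 10 of 14 and 35.7%, and TATAAA in 1 of 6, 0 of 14 and 13.6%. The lower chains Col5a1 and Col11a1 and the window shown of the higher chain Col18a1 all hold GGGCGG. A second Col18a1 window, which starts inside the span of an annotated gene and is not shown, held 0 matches of each motif. Whether these letters separate lower from higher chains thus depends on the window and was not tested. Such matches describe the letters of these windows only.

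Basement membrane chains showed no common shift with tranylcypromine. Col4a1 and Col4a2 encode the chains of the widespread type IV trimer and lie head to head. Their transcript starts in the RefSeq windows are 21 bases apart, with overlapping 5′ ends, and the windows share 78 bases. Col4a1 had signals of 5857, 7057, 5109 and 5968 with control, aof2 and rfk siRNA and with tranylcypromine, and Col4a2 had 3390, 3858, 3030 and 3285 in the same order. Both were highest with aof2 siRNA and lowest with rfk siRNA, and their log2 differences, 0.27 and 0.19 with aof2 siRNA, -0.20 and -0.16 with rfk siRNA and 0.03 and -0.05 with tranylcypromine, lay within 0.08 of each other in each comparison. The second probe set of Col4a1 gave lower readings, -0.23, -0.71 and -0.32, so that its direction with aof2 siRNA rests on the probe set, and the 0.03 with tranylcypromine turned to -0.04 with the arrays centred on their medians and to -0.005 with quantile normalization. Col4a5, an X-linked chain of the kidney and other specialised basement membranes, had signals of 1830, 2035, 1903 and 1331. It stood apart in the tranylcypromine array alone, at 72.7% of control, and both its probe sets gave similar log2 differences there (-0.46 and -0.39). Col4a6, which neighbours Col4a5, had signals of 46.7, 47.2, 46.3 and 66.1, too close to the filter for its 0.50 with tranylcypromine to be read as a size. Col4a3 and Col4a4, the other chains of the specialised network, were below the filter.

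Set against the type IV chains, the fibrillar median was lower by 0.65 with tranylcypromine, by 0.25 with aof2 siRNA and by 0.17 with rfk siRNA. With a gene's probe sets averaged, the gap with tranylcypromine was -0.31, and with rfk siRNA compared with the mean of the 3 other arrays the gap had the opposite sign, 0.16. Averaging a gene's probe sets also turned the gap with rfk siRNA, to 0.06. These gaps rest on 8 and 4 chains on 1 array per group and were not tested.

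Type VI collagen, the beaded filament collagen that links cells to the interstitial matrix and is abundant around fat cells, was slightly higher in all treated arrays. Its chains Col6a1, Col6a2 and Col6a3 form 1 heterotrimer. Col6a1 had signals of 8515, 9651, 8893 and 8866 with control, aof2 and rfk siRNA and with tranylcypromine. Col6a2 had 12635, 14543, 13489 and 14291, and Col6a3 had 3683, 4351, 3946 and 4525. The control array was the lowest for each of the 3 genes, which holds for 22.9% of all genes compared, and no difference exceeded 0.30. The log2 differences were 0.18, 0.20 and 0.24 with aof2 siRNA, 0.06, 0.09 and 0.10 with rfk siRNA and 0.06, 0.18 and 0.30 with tranylcypromine, and the second probe set of Col6a2 gave 0.24, 0.12 and 0.30. After centring each array on its median, the 0.06 of Col6a1 with tranylcypromine became -0.004. All of these differences are smaller than the median range between probe sets of a chain.

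Col18a1 encodes a basement membrane proteoglycan of the multiplexin group whose end fragment is endostatin. Its signals were 651 with control siRNA, 866 with aof2 siRNA, 684 with rfk siRNA and 1122 with tranylcypromine. The tranylcypromine array was the highest, at 172% of control, followed by aof2 siRNA at 133%. Both probe sets were above control in every comparison, with 0.79 and 0.57 for tranylcypromine, 0.41 and 0.16 for aof2 siRNA and 0.07 and 0.03 for rfk siRNA. Col7a1, the anchoring fibril chain that ties basement membranes to the tissue below, had signals of 451, 321, 280 and 366, with the control array the highest and rfk siRNA the lowest at 62.1% of control.

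Fibril-associated chains, which sit on the surface of fibrils, went different ways. Col12a1 had signals of 715, 627, 788 and 454 with control, aof2 and rfk siRNA and with tranylcypromine, lowest with tranylcypromine at 63.5% of control. A dimmer probe set of Col12a1 gave 0.11 there, against -0.65. Col16a1 had signals of 962, 1001, 806 and 1240, highest with tranylcypromine at 129% of control. Col20a1 and Col22a1, near the filter, had signals of 37.3 to 67.1 and of 44.5 to 77.0, and their log2 differences of -0.50 to 0.35 and of -0.35 to 0.44 carry no reliable size. The short-chain network gene Col8a1 was the only chain past 2-fold in the higher direction. Its signals were 31.1, 113, 55.5 and 107, or log2 differences of 1.85, 0.83 and 1.78, but the control signal lies below the filter and a further probe set just under the filter gave -0.72, -1.02 and 0.30, so that its direction with the siRNAs is not settled.

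The 20 chains below the filter had geometric mean signals of 3.49 to 39.5 and single signals of 0.82 to 75.1, with 0 of them reaching 100 on any array. They are the fibrillar chains Col2a1, Col11a2 and Col24a1, Col4a3 and Col4a4, Col6a4 and Col6a5, Col8a2, Col10a1, Col9a1, Col9a2, Col9a3, Col14a1, Col15a1, Col19a1, Col26a1 and the 4 transmembrane chains. Col2a1 and the type IX chains are cartilage collagens and Col10a1 marks hypertrophic cartilage. MAS5 has no floor, and log2 differences among these genes reached 4.41 in size on signals too low to order. Col15a1, a multiplexin of basement membranes, had signals of 56.0, 60.6 and 68.4 with control siRNA, aof2 siRNA and rfk siRNA and 9.70 with tranylcypromine.

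Tranylcypromine and aof2 siRNA both act on LSD1, and a comparison between them leaves out the control array. Of the 22 chains 15 were lower with tranylcypromine than with aof2 siRNA (50% of all genes compared were), and 6 were at least 1.5-fold lower (4.23% of genes), with 0 at least 1.5-fold higher (3.54%). These 6 were Col5a2, Col5a3, Col11a1, Col27a1, Col4a5 and Col20a1, with log2 differences of -0.70, -0.68, -0.72, -0.59, -0.61 and -0.85. The second probe set of Col5a2 also passed 1.5-fold, with 1158 with aof2 siRNA and 595 with tranylcypromine. Those of Col11a1 (721 and 495), Col27a1 (232 and 184) and Col4a5 (561 and 407) were lower too but did not reach 1.5-fold. The value of Col20a1, with signals near the filter, carries no reliable size. The fibrillar median was -0.51, with 7 of 8 below, and the type IV median -0.24. Fibrillar signals were thus mostly lower with tranylcypromine than with aof2 siRNA too, on 1 array each. Col5a3, Col27a1, Col4a5 and Col20a1 had their highest signal on the aof2 siRNA array itself. Col1a1 and Col5a1, at -0.43 and -0.42, did not reach 1.5-fold here. Transfection and drug cannot be told apart in this comparison either, and the cause of the differences was not tested. Col18a1 was higher with tranylcypromine than with aof2 siRNA by 0.37. Between rfk siRNA and aof2 siRNA, 20 of 22 chains were lower with rfk siRNA (51.5% of genes compared), by a median of -0.17, and Col8a1 at -1.02 was the only chain past 2-fold (1.6% of genes). Between tranylcypromine and rfk siRNA 11 chains lay on each side (49.3% of genes lay below), and the largest differences were 0.94 for Col8a1 and -0.80 for Col12a1. The further probe set of Col8a1, just under the filter, had 36.1 with aof2 siRNA and 29.4 with rfk siRNA. The dimmer probe set of Col12a1 had 152 with rfk siRNA and 131 with tranylcypromine, so these sizes depend on the probe set.

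The wider collagen pathway was looked at through 5 lists. Chain folding, modification and secretion genes lay below control in 12, 11 and 10 of 16 with aof2 siRNA, rfk siRNA and tranylcypromine, with medians of -0.12, -0.04 and -0.10, and 50.7%, 51.5% and 52% of all genes compared lay below. The members at least 1.5-fold lower in these comparisons numbered 3, 1 and 2, beside the shares of all genes given above. Plod2, a lysyl hydroxylase that prepares collagen for crosslinks, had signals of 2053, 1194, 874 and 1027 with control, aof2 and rfk siRNA and with tranylcypromine. The control array was the highest and the rfk siRNA array the lowest, and the log2 differences were -0.78 with aof2 siRNA, -1.23 with rfk siRNA and -0.999 with tranylcypromine. P4ha1, a catalytic subunit of prolyl 4-hydroxylase, which stabilises the triple helix, had signals of 2253, 1147, 1748 and 1369, with differences of -0.97, -0.37 and -0.72. P3h3, a prolyl 3-hydroxylase family member, was at -0.65, 0.27 and -0.11, and P4ha3, a further prolyl 4-hydroxylase subunit, was at 0.53, 0.22 and 0.75.

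Genes of propeptide removal and crosslinking, 9 compared, had medians of 0.35, -0.05 and 0.11 with aof2 siRNA, rfk siRNA and tranylcypromine, with 8, 4 and 6 above control, beside 49.3%, 48.5% and 48% of all genes compared. The lysyl oxidase family gene Loxl4 was at -0.46, -0.21 and -0.95, and the procollagen enhancer gene Pcolce2 at 0.58, 0.75 and 0.20. Tgm2, a crosslinking transglutaminase, had signals of 115, 148, 62.8 and 240, or differences of 0.36, -0.88 and 1.06. Among 4 collagen receptor and uptake genes compared, 3, 1 and 2 lay above control, beside the same shares of all genes compared. Ddr1 was at 0.50, 0.43 and 0.17 and the collagen uptake receptor gene Mrc2 at -0.61, -0.30 and -0.08.

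The 14 genes of TGF-beta signalling, a main inducer of fibrillar collagen genes, had medians of 0.13, 0.17 and 0.16, with 10, 11 and 9 above control, beside 49.3%, 48.5% and 48% of all genes compared. Ltbp2, a matrix protein of the latent TGF-beta binding protein family, had signals of 332, 683, 454 and 823, or 1.04, 0.45 and 1.31. Tgfb1 stood at 0.78, 0.18 and 0.82 on signals of 43.7 to 77.2, close to the filter. The lowest members were Smad2 with aof2 siRNA at -0.35, Smad3 with rfk siRNA at -0.17 and Smad7 with tranylcypromine at -0.36, and Tgfb2, with rfk siRNA at 0.52, was the highest there.

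Collagen-binding matrix partners, 12 compared, had medians of -0.10, -0.06 and -0.08, with 4, 5 and 5 above control. Of all genes compared 49.3%, 48.5% and 48% lay above. Of the basement membrane linker proteins, Nid1 was at -0.41, -0.08 and -0.80 and Nid2 at -0.08, 0.46 and -1.20, both lowest with tranylcypromine, whereas the heparan sulfate proteoglycan gene Hspg2 was at -0.23, -0.64 and 0.37. Dcn, encoding decorin, which coats fibrils, had signals of 1798, 1592, 3763 and 1058, highest with rfk siRNA. Thbs1 was at 0.76, 1.24 and 0.66, Thbs2 at -0.12, -0.05 and 0.75, and the laminin chain gene Lama4 at 0.67, 0.53 and -0.12.

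**Figure D4:**
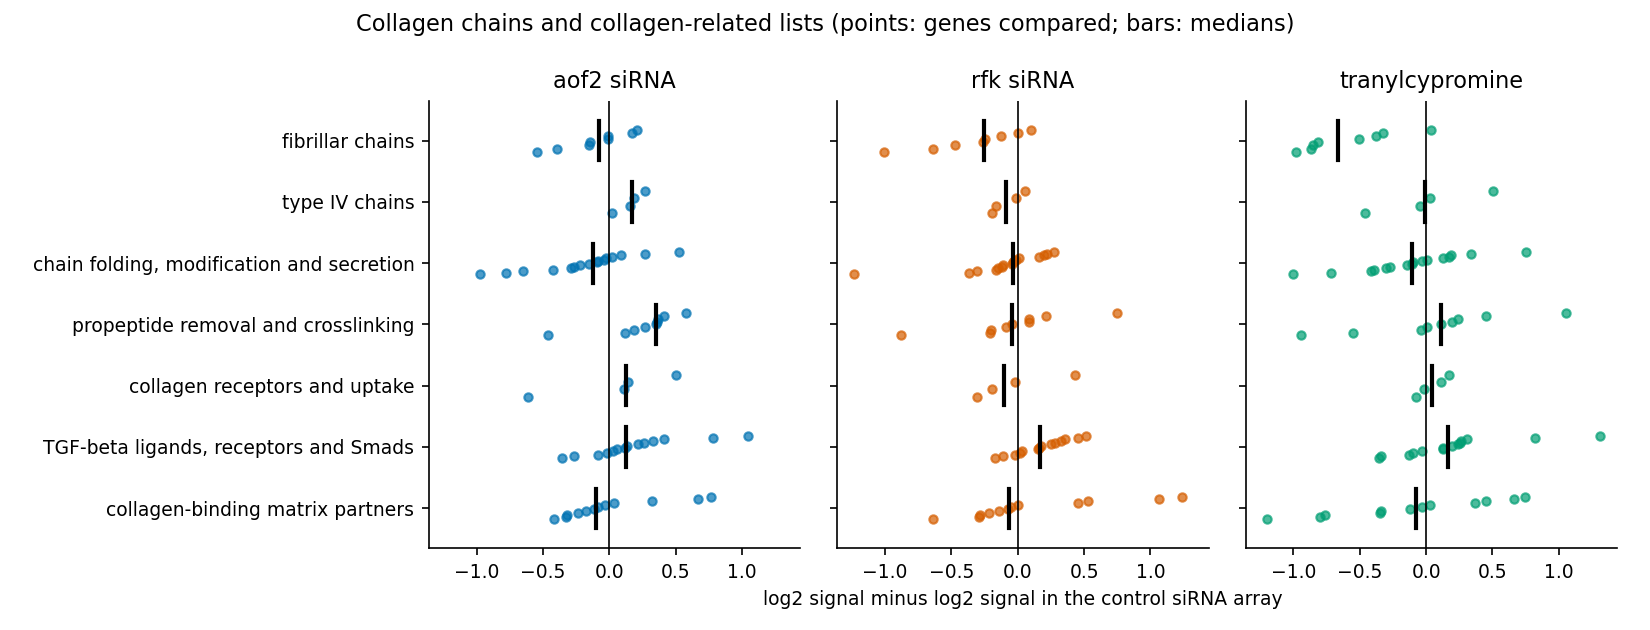
Log2 signal minus the log2 signal in the control siRNA array (horizontal) for fibrillar chains, type IV chains and the 5 collagen-related lists (vertical), in 1 panel per treated array, with 1 point per gene compared and a black bar at each median. The fibrillar bar lies at -0.66 with tranylcypromine, while the bars of the 5 lists lie between -0.10 and 0.16 there.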

How the data were processed

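Affymetrix 3' arrays measured 4 cultures, 1 array per group. The deposited intensities are MAS5 signals on a linear scale, per the submitters' processing notes; the MAS5 version, scaling target and presence calls were not given in the sources used here. Their trimmed means lay between 499.827 and 499.832, so the authors had scaled the arrays.

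The log2 of each signal was used, with no offset. Of 45101 probe sets, 34958 had 1 gene symbol, 932 several and 9211 none here; 34754 matched RefSeq (GRCm38.p6), which changed 0 symbols. Each of 18194 genes was read from the probe set of highest mean log2 signal. The 10788 genes with a mean at or above the median probe set (signal 50.9) were compared. With 1 array per group no test exists, and no p-value is given. The difference of tranylcypromine from control was tested on simulated arrays with known changes. All probe sets of a changed gene were shifted alike there, and changed genes were drawn from those passing the filter. The simulation could therefore not judge the choice of probe set or the filter. The other steps were not simulated.

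Members, classes and lists were chosen with earlier results of these data known. Every member above the filter is named, with Kdm1a and Rfk, pathway list members at least 1.5-fold from control, and each pathway list's extremes. Alternatives covered scaling, offset, filter, probe set choice, reference array, threshold and class limits; 1, on agreement of probe sets, was chosen after seeing the data. The software was Python 3.11.15, NumPy 2.4.6, pandas 2.3.3 and matplotlib 3.10.9.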

Additional observations from a re-analysis of the deposited data

How the results depend on the processing

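Each value rests on 1 array per group, and dim probe sets and probe set choice limit it further. No paired analysis was possible because each group has 1 array and no test was made, and leaving out replicates was not possible either. Over all alternatives, summary values moved by less than the gap between probe sets of 1 gene, or counts by less than 1.5 times, in 85 cases and by more in 26. Of 489 values of single chains, 480 stayed on the same side of 2-fold, 8 crossed it and 1 passed it with the opposite sign. Few reported values passed 2-fold, so staying on the same side says little. The sign turned in 36. They include 14 of 66 against the 3 other arrays, 9 of 51 with averaged probe sets and 6 of 66 with median centring. Changes of filter left each value as it was and an offset cannot turn a sign, so their 0 turns were fixed in advance. Against the 3 other arrays Col1a1 with aof2 siRNA went from -0.55 to 0.11 and Col8a1 with rfk siRNA from 0.83 to -0.38. Counts at 2-fold are given as higher and lower. Without a filter they were 5 and 5 with aof2 siRNA, 3 and 3 with rfk siRNA and 7 and 5 with tranylcypromine. With the stricter filter, and with the 3 other arrays as reference, 0 chains were higher with aof2 siRNA or tranylcypromine. With the mean of all probe sets 0 were higher and 1 lower in both; the lower one was Col5a3, at -1.43 with aof2 siRNA, opposite to its reported sign, which includes a dim probe set. With rfk siRNA the 1 lower chain, Col1a1, became 0 with quantile normalization, the offset, the mean of probe sets, the other reference, and the requirement that every probe set above the filter pass, an alternative chosen after seeing the data. With the arrays centred on their medians 1 chain, Col1a1, was lower with tranylcypromine (-1.04). At 1.5-fold the counts were 1 and 3 with rfk siRNA and 2 and 5 with tranylcypromine. The fibrillar minus type IV gap was -0.31 with tranylcypromine by the mean of probe sets, and with rfk siRNA 0.06 by the mean of probe sets and 0.16 against the 3 other arrays. The cause of these changes was not tested. With median centring the median of all genes lay at -0.08 with aof2 siRNA and tranylcypromine, not -0.004 and -0.016.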
